A study of Solanum lycopersicum var. cerasiforme with 6 samples.

Results

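The jasmonate signalling core was followed in young tomato inflorescences through 10 loci: the transcription factor gene MYC2, the receptor gene COI1 and the repressor genes JAZ1 to JAZ8. The members were chosen by locus identifier, with earlier results of these data known, and each had 1 of the 34081 rows of the deposited count files. JAZ8 had no reads in any pool, so 9 of the 10 members entered the test. The RNA came from F3 plants of Solanum lycopersicum var. cerasiforme, a family in which the fruit weight locus fw2.3 still segregated. The derived allele, called fw2.3-D, was carried by the plants of 3 pools, and the wild-type allele, called fw2.3-WT, by those of 3 more. A pool mixed RNA of 2 plants with the same genotype in equal parts. Both genotypes grew unpruned in a greenhouse at random positions and received no treatment, and inflorescences were taken while their largest bud was under 2 mm long. The plants' age is not given in the sources used here.

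Jasmonates are lipid-derived hormones that rise after wounding and insect attack and also act in flower development. Without the active hormone, JAZ proteins bind MYC2, a basic helix-loop-helix transcription factor, and hold it inactive together with co-repressors. The hormone, as its isoleucine conjugate, joins COI1, an F-box protein, to a JAZ protein, which is then degraded, and MYC2 is released. MYC2 in turn activates many JAZ genes, so JAZ transcripts are both parts of the pathway and among its early products. In tomato, loss of COI1 removes wound-induced defence and causes female sterility.

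The comparison asked whether the transcripts of these genes differed between the genotypes. No member passed the test. By edgeR's quasi-likelihood test, 0 of the 9 tested members passed 0.05 after Benjamini-Hochberg adjustment over all rows, where 0.0239% of the 20942 rows tested were called. The JAZ genes nevertheless stood on one side. All 7 that had reads gave log2 fold changes (fw2.3-D over fw2.3-WT) above 0, from 0.24 to 1.03 with a median of 0.66, while the median over all rows tested was 0.00. Without adjustment, 5 members had a p under 0.05, namely JAZ1, JAZ2, JAZ3, JAZ4 and JAZ7, all with higher values in fw2.3-D, where 2.06% of all rows did. JAZ1 lost this in 4 of the 6 fits that left out a single pool. In 4 of these 5 members, JAZ2, JAZ3, JAZ4 and JAZ7, every fw2.3-D pool lay above every fw2.3-WT pool, which held for 5.15% of all rows. Because the members were chosen with earlier results known, their counts beside the shares of all rows are descriptions. DESeq2 called 1 member, JAZ2, where it called 0.205% of rows. MYC2 and COI1 lay near 0.

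Levels below are counts scaled to library total (CPM) and adjusted with TMM factors, and a pool's depth ran from 22303511 to 28504360 counts. The spread between pools includes differences between plants, averaged over 2 plants a pool. In these mixed tissues, fewer cells that express a gene and less RNA per cell cannot be told apart. Strand was not kept in the libraries, and an overlapping gene on the opposite strand would add its reads. For the tissue label, 8 loci listed as inflorescence and floral identity genes summed to 532 to 633 CPM in fw2.3-D pools and 564 to 603 CPM in fw2.3-WT pools, and all 8 had reads in every pool. A locus listed for late pollen had at most 0.207 CPM, and of 2 loci listed for ripe fruit 1 had no reads and the other at most 3.97 CPM.

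**Figure D1:**
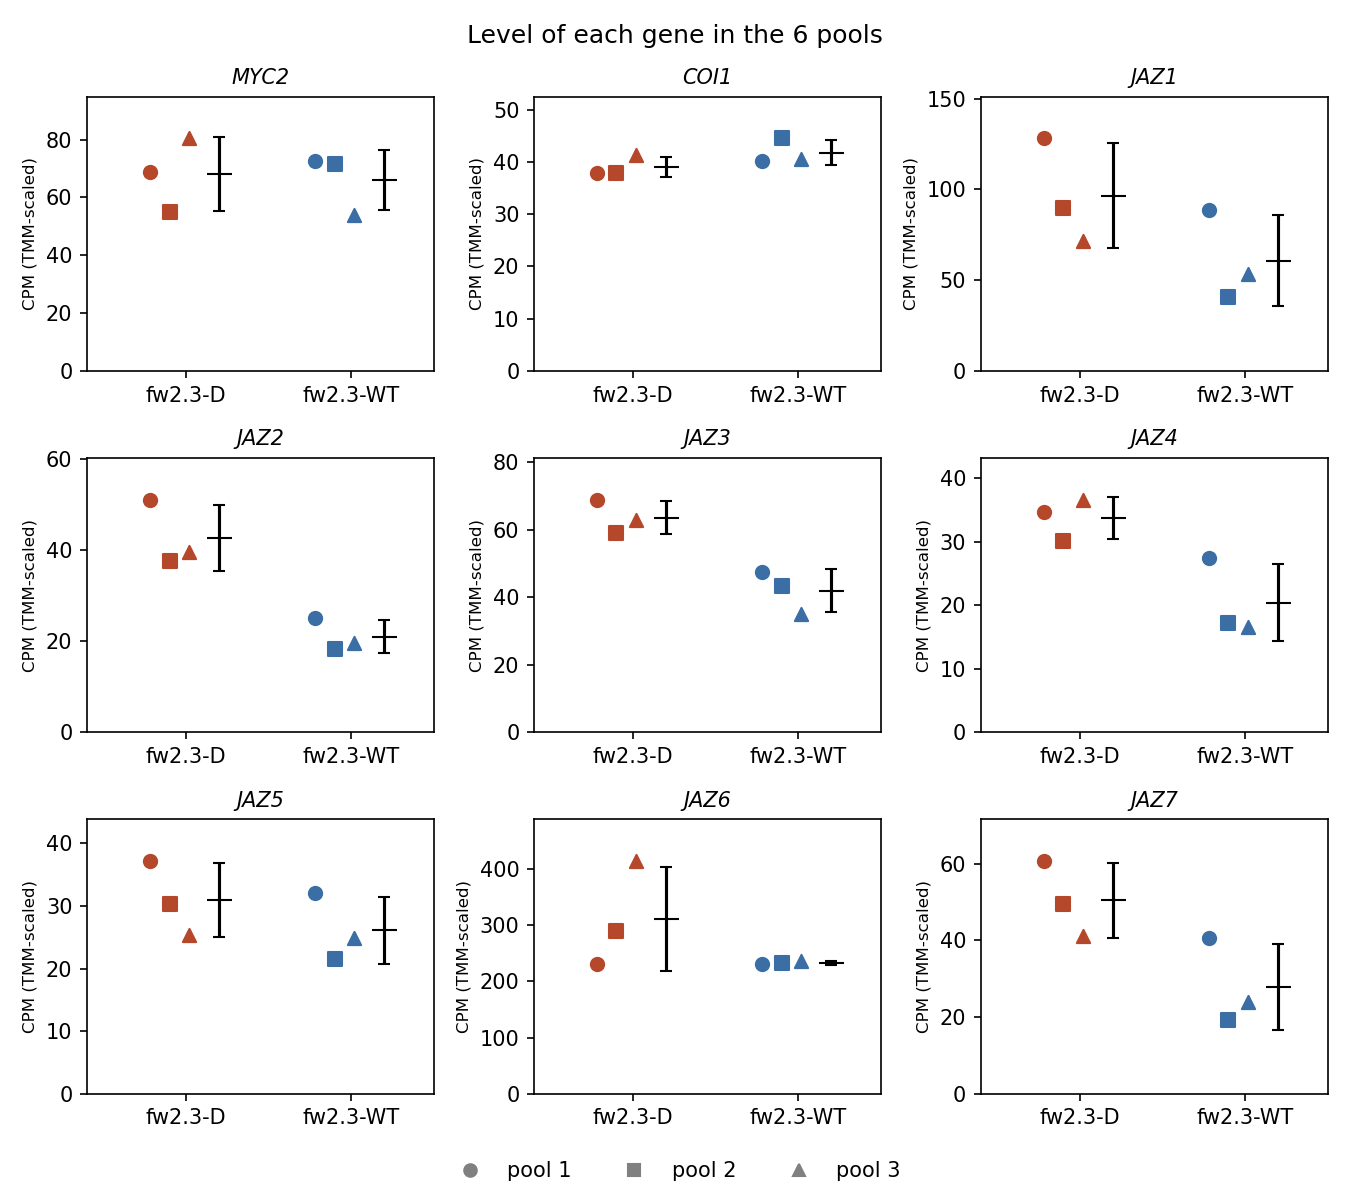
CPM of the 9 detected members (one panel each, y axes from 0) in the fw2.3-D and fw2.3-WT pools; symbols are pools, and the black mark is the mean with its SD (n = 3). JAZ2, JAZ3, JAZ4 and JAZ7 show no overlap between genotypes, while MYC2 and COI1 overlap.

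COI1 (Solyc05g052620.4, chromosome 5) encodes the receptor. It had 37.8, 38.0 and 41.3 CPM in the fw2.3-D pools, against 40.2, 44.5 and 40.5 CPM in the fw2.3-WT pools. The genotypes overlapped, and COI1 was the steadiest member. Its SD within a genotype was 0.077 on the log2 scale, at the 5.0th percentile of all rows tested, where the median was 0.21. The log2 fold change was -0.10 (SE 0.108, edgeR adjusted p = 0.948), with a 95% interval from 0.791-fold to 1.11-fold.

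MYC2 (Solyc08g076930.1, chromosome 8) had 69.0, 55.0 and 80.4 CPM in the fw2.3-D pools, against 72.7, 71.5 and 54.0 CPM in the fw2.3-WT pools. Both the highest and the second lowest pool were fw2.3-D, so the genotypes overlapped throughout. The log2 fold change was 0.04 (SE 0.167, edgeR adjusted p = 0.977), and its 95% interval ran from 0.797-fold to 1.34-fold. A difference anywhere within that interval remains compatible with these pools.

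JAZ2 (Solyc12g009220.2, chromosome 12) had the largest fold change of the members with all pools. JAZ7 exceeded it without fw2.3-WT replicate 1, with log2 fold changes of 1.22 for JAZ7 and 1.17 for JAZ2, and with both first pools left out. JAZ2 had 51.0, 37.6 and 39.5 CPM in the fw2.3-D pools, against 25.0, 18.3 and 19.5 CPM in the fw2.3-WT pools. The lowest fw2.3-D pool stood well above the highest fw2.3-WT pool. It gave a log2 fold change of 1.03 (SE 0.165), 2.04-fold with a 95% interval from 1.58-fold to 2.63-fold. This gave the 14th smallest p of 20942 rows, 0.000108, and an edgeR adjusted p of 0.162. Between pools of the same number, the log2 difference of fw2.3-D minus fw2.3-WT was 1.03, 1.04 and 1.02. The numbers are no stated pairing, and the SD of JAZ2 within a genotype was 0.24 on the log2 scale. The likeness of these differences therefore does not measure its spread. DESeq2 gave a log2 fold change of 1.02 with an adjusted p of 7.7e-05, and the call also depended on the filter: without one, the edgeR adjusted p was 0.0462.

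JAZ3 (Solyc03g122190.3, chromosome 3), which RefSeq also lists as SRG1, had 68.8, 59.0 and 63.0 CPM in the fw2.3-D pools, against 47.6, 43.3 and 35.2 CPM in the fw2.3-WT pools. The genotypes did not overlap, and the pools of each lay close together. The log2 fold change was 0.60 (SE 0.135), 1.51-fold with a 95% interval from 1.23-fold to 1.87-fold (edgeR adjusted p = 0.617). DESeq2 gave an adjusted p of 0.0908.

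JAZ4 (Solyc12g049400.2, chromosome 12) had 34.6, 30.1 and 36.5 CPM in the fw2.3-D pools, against 27.5, 17.2 and 16.5 CPM in the fw2.3-WT pools. The first fw2.3-WT pool came close to the lowest fw2.3-D pool, and the others lay far below. Its log2 fold change was 0.72 (SE 0.196, edgeR adjusted p = 0.948), with a 95% interval from 1.22-fold to 2.24-fold.

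JAZ7 (Solyc11g011030.2, chromosome 11) had 60.6, 49.5 and 41.2 CPM in the fw2.3-D pools, against 40.5, 19.3 and 23.9 CPM in the fw2.3-WT pools. The lowest fw2.3-D pool and the first fw2.3-WT pool were almost level, so the separation rests on a narrow gap. On the log2 scale the difference was 0.85 (SE 0.252, edgeR adjusted p = 0.948), 1.81-fold with a 95% interval from 1.22-fold to 2.67-fold.

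JAZ1 (Solyc07g042170.3, chromosome 7) had the widest spread of the members, with an SD within a genotype of 0.50 on the log2 scale, at the 86.6th percentile of all rows tested. It had 128, 89.6 and 71.5 CPM in the fw2.3-D pools, against 88.7, 40.5 and 53.2 CPM in the fw2.3-WT pools. The genotypes overlapped, because the first fw2.3-WT pool exceeded fw2.3-D pool 3. The fitted difference was 0.66 on the log2 scale (SE 0.285, edgeR adjusted p = 0.948). Leaving out fw2.3-D replicate 1 gave 0.40, leaving out fw2.3-WT replicate 2 gave 0.44, and leaving out fw2.3-WT replicate 1 gave 1.04.

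JAZ5 (Solyc03g118540.4, chromosome 3) had 37.1, 30.3 and 25.3 CPM in the fw2.3-D pools, against 32.0, 21.5 and 24.8 CPM in the fw2.3-WT pools. It overlapped between the genotypes and had the smallest fold change of the 7 JAZ genes with all pools, 0.24 on the log2 scale (SE 0.183, edgeR adjusted p = 0.948). Single pools moved it: leaving out fw2.3-D replicate 1 gave 0.09, and leaving out fw2.3-WT replicate 2 gave 0.12. It was 0.37 with fw2.3-D replicate 3 left out, where JAZ6 was the smallest, and 0.41 with fw2.3-WT replicate 1 left out, where JAZ6 was level with it.

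JAZ6 (Solyc01g005440.4, chromosome 1) was the most abundant member. It had 232, 289 and 413 CPM in the fw2.3-D pools, against 230.2, 232 and 237 CPM in the fw2.3-WT pools. The fw2.3-WT pools were almost equal, whereas the fw2.3-D pools ran from their level (pool 1) to well above it (pool 3). The fitted log2 difference was 0.42 (SE 0.191, edgeR adjusted p = 0.948). Single pools moved it both ways: it was 0.16 without fw2.3-D replicate 3 and 0.59 without fw2.3-D replicate 1.

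JAZ8 (Solyc06g068930.2, chromosome 6) had 0 reads in all 6 pools. With 3 counts as the limit that 0 reads allow, its level in a pool could be at most 0.105 to 0.134 CPM, counting error only.

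**Figure D2:**
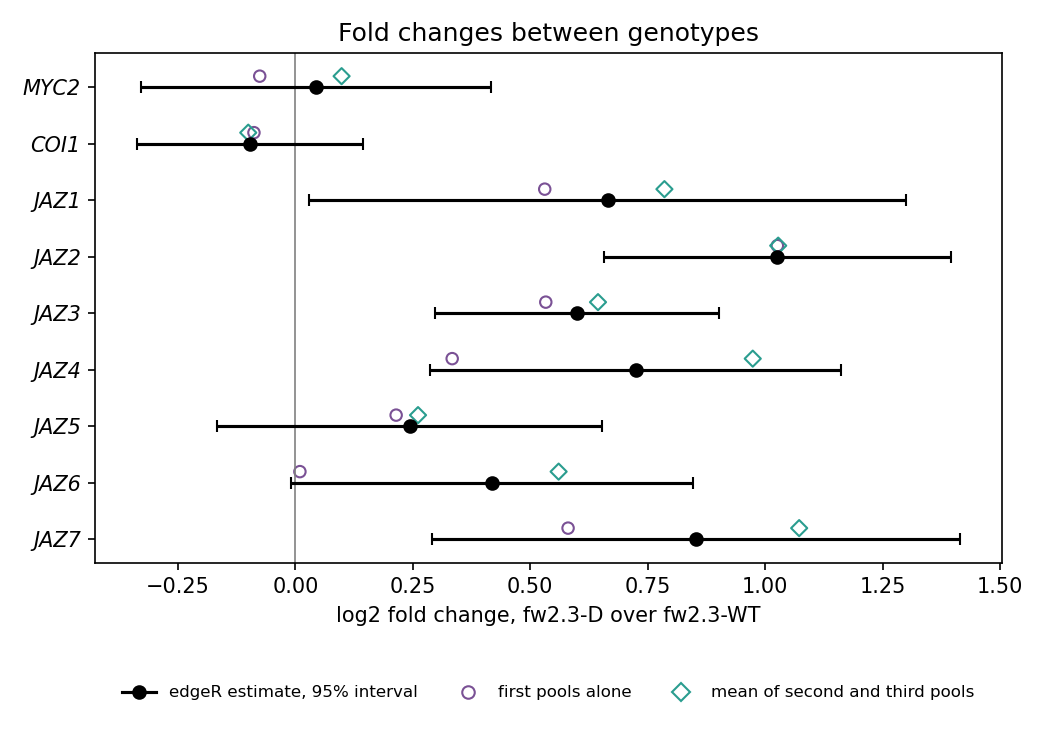
Log2 fold change of each member, fw2.3-D over fw2.3-WT, with the edgeR estimate and its 95% interval (black, 3 pools a genotype), the difference between the first pools alone (open circle) and the mean difference of pools 2 and 3 (open diamond). JAZ2 lies at 1.03 by each measure. The other JAZ genes are nearer 0 in the first pools than in pools 2 and 3, with the widest gaps in JAZ4 and JAZ6.

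Several JAZ genes were set apart in pool 1 of both genotypes. In 5 of the 7 (JAZ1, JAZ2, JAZ3, JAZ5 and JAZ7) the first pool was the highest of its genotype in both genotypes. The share of all rows with this pattern was not computed. Over all rows tested, the 2 first pools deviated from their genotype means with a correlation of 0.34, so their likeness was not particular to JAZ genes. JAZ1 was higher in the first pool than in the mean of the other pools by 0.68 on the log2 scale in fw2.3-D pools and by 0.93 in fw2.3-WT pools, and JAZ7 by 0.42 in fw2.3-D pools and 0.92 in fw2.3-WT pools. JAZ6 went the other way in fw2.3-D, with a first pool lower than the others by a log2 difference of -0.58. The first pools also stood apart in 2 of 3 loci listed as circadian clock genes. One had 58.5 to 67.7 CPM in the first pools and 28.6 to 31.9 CPM in the others, and the second had 116 to 133 CPM in the first pools and 177 to 322 CPM in the others. The part of this in the JAZ values was not tested.

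The pool numbers are no stated pairing, and only the first pools matched by number. Compared at the same number, all 7 JAZ genes had higher levels in fw2.3-D for all 3 numbers. The difference was very small for JAZ6 in the first pools and for JAZ5 in the third pools (0.03 on the log2 scale). The share of all rows for which this held was not computed, so the count is a description only. The log2 difference of JAZ4 was 0.33 between the first pools and averaged 0.97 over the other pools. For JAZ7 it was 0.58 and 1.07, and for JAZ6 it was 0.01 and 0.56. With both first pools left out of the fit, a choice made after the data were seen, 0 members were called by edgeR, where 0.0998% of rows were, and JAZ2 kept a log2 fold change of 1.02 (adjusted p = 0.0613). In that fit 6 members had an unadjusted p under 0.05, where 4.14% of rows did.

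Levels were compared between genes on the deposited RPKM, which are per length of gene. JAZ6 averaged 214 ± 66.9 RPKM in fw2.3-D pools and 162 ± 6.40 RPKM in fw2.3-WT pools (SD, n = 3 each), and its lowest pool exceeded the highest pool of every other member. JAZ1 followed at 83.1 ± 22.9 RPKM in fw2.3-D pools and 53.2 ± 20.8 RPKM in fw2.3-WT pools (SD, n = 3 each). In fw2.3-D pools JAZ7, JAZ2, JAZ3, JAZ4 and MYC2 came next by mean, at 57.3, 55.7, 41.4, 41.1 and 32.6 RPKM. In fw2.3-WT pools MYC2 stood level with JAZ7, at 32.1 RPKM each, above JAZ2, JAZ3 and JAZ4 at 27.7, 27.7 and 25.1 RPKM. The SD of MYC2 was 6.15 RPKM in fw2.3-D pools and 4.40 RPKM in fw2.3-WT pools (n = 3 each), and its level lay above JAZ5 in every pool. JAZ5 and COI1 overlapped at the low end, and COI1 averaged 16.8 ± 1.09 RPKM in fw2.3-D pools and 18.3 ± 1.11 RPKM in fw2.3-WT pools (SD, n = 3 each).

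The summed JAZ level was higher in every fw2.3-D pool than in any fw2.3-WT pool. Summed over JAZ1 to JAZ7, the level was 505, 485 and 554 RPKM in the fw2.3-D pools, against 397, 308 and 335 RPKM in the fw2.3-WT pools. Without JAZ6 the sums were 350.4, 284 and 267 RPKM in fw2.3-D, against 241, 147 and 166 RPKM in fw2.3-WT pools. Here too the genotypes did not overlap. Both sums contain JAZ2, JAZ3, JAZ4 and JAZ7, which did not overlap singly, so they are no separate evidence. The makeup of the sum varied among pools of one genotype: JAZ6 took 30.6% to 51.7% of it in fw2.3-D pools and 39.3% to 52.1% in fw2.3-WT pools. JAZ2 took 9.45% to 12.8% in fw2.3-D pools and 7.87% to 8.17% in fw2.3-WT pools, ranges that did not overlap. The shares of JAZ1, JAZ3, JAZ4, JAZ5, JAZ6 and JAZ7 overlapped.

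**Figure D3:**
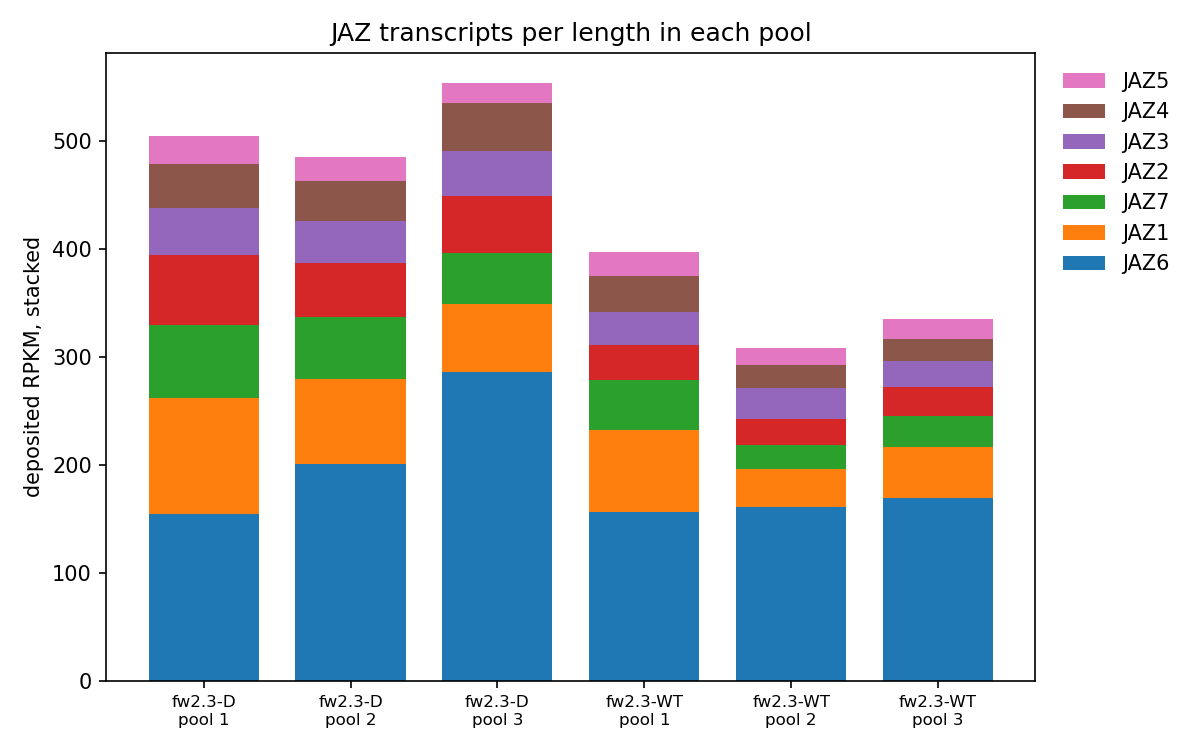
Deposited RPKM of JAZ1 to JAZ7 stacked for each pool, with the y axis from 0. The summed height is 485 to 554 RPKM in the fw2.3-D pools and 308 to 397 RPKM in the fw2.3-WT pools, and JAZ6 is the largest part of every bar.

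JAZ levels were also set against MYC2, as the ratio of each JAZ gene to MYC2 within a pool (RPKM over RPKM). MYC2 itself had a log2 fold change of 0.04, so these ratios largely restate the differences of the JAZ genes. The ratio of JAZ2 to MYC2 was 1.34 to 2.02 in fw2.3-D pools and 0.699 to 0.985 in fw2.3-WT pools. The ratio of JAZ3 to MYC2 was 1.06 to 1.46 in fw2.3-D pools and 0.822 to 0.889 in fw2.3-WT pools. That of JAZ4 was 1.16 to 1.39 in fw2.3-D pools and 0.613 to 0.961 in fw2.3-WT pools. In these 3 genes the genotypes did not overlap, so each JAZ transcript was more abundant than MYC2 in every fw2.3-D pool and less abundant in every fw2.3-WT pool. Each gave p = 0.1 in an exact two-sided permutation test over pools, the smallest that 3 pools against 3 allow, and an adjusted p of 0.233 over the 7 ratios, so this test cannot pass 0.05 for any of them. The ratios of JAZ1, JAZ5, JAZ6 and JAZ7 to MYC2 overlapped, with exact p from 0.2 to 0.5. The share of all rows whose ratio to MYC2 did not overlap was not computed.

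Over all 6 pools, no other member had MYC2's order of pools, although JAZ4 had it within each genotype. A correlation over the 6 pools also takes in the difference of the JAZ genes between genotypes. Over the 6 pools, the log2 CPM of JAZ4 had the highest Pearson r with MYC2 among the members, 0.42 (Spearman rho 0.54), and ranked 3977 of 20941 rows. JAZ5 had the lowest, -0.04, and ranked 10985. The rows most like MYC2 were Solyc05g052200.4, with r = 0.98 and a log2 fold change of 0.03, and Solyc12g042720.3, with r = 0.98 and a log2 fold change of 0.01. These are descriptions of the same 6 libraries, and with so few pools high values arise among this many rows.

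In all, 3 lists of other jasmonate loci, compiled by locus number from remembered assignments with earlier results of these data known, were set beside the members, and their counts are no independent support. The signalling list, of further JAZ genes, MYC2-related transcription factors and a Mediator subunit, had 12 loci, of which 9 were tested. None was called by edgeR, 5 had values above 0 and 4 below, and the median log2 fold change was 0.05. In it 2 loci had an unadjusted p under 0.05, both higher in the fw2.3-D pools, where 2.06% of all rows did. That on chromosome 8, listed as a further JAZ gene, had 3.89, 2.44 and 4.84 CPM in the fw2.3-D pools, against 1.53, 1.25 and 1.53 CPM in the fw2.3-WT pools. Its log2 fold change was 1.36 (SE 0.330, edgeR adjusted p = 0.839).

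The biosynthesis list, of enzymes that make jasmonate and of prosystemin, a wound-signal precursor, had 8 loci, all tested. None was called by edgeR, and the median log2 fold change was 0.16 over a range from -0.11 to 0.60. A single locus, on chromosome 2, had an unadjusted p under 0.05 with higher values in fw2.3-D, where 2.06% of all rows did. It had 249.4, 249 and 172.1 CPM in the fw2.3-D pools, against 172.2, 137 and 133 CPM in the fw2.3-WT pools. The genotypes thus overlapped slightly, at 172.1 and 172.2 CPM (edgeR adjusted p = 0.948).

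The response list was of wound-responsive defence loci, listed as products of the pathway. It was compiled with earlier results of these data known, so its higher values may follow from that choice and are no independent result. Of 17 loci, 15 were tested. All 15 had log2 fold changes above 0, from 0.30 to 2.00 with a median of 1.12. Of them, 4 were called higher in fw2.3-D (edgeR adjusted p under 0.05). Over all 20942 rows tested, 10507 were above 0 and 0.0239% were called in either direction. The 4 calls made with all pools are 4 of the 5 calls over the whole table. Solyc12g010030.3 averaged 2675 ± 92.1 CPM in fw2.3-D pools and 841 ± 159 CPM in fw2.3-WT pools (SD, n = 3 each; edgeR adjusted p = 0.0178). Solyc07g007250.4 averaged 404 ± 51.3 CPM in fw2.3-D pools and 148 ± 23.2 CPM in fw2.3-WT pools (SD, n = 3 each; edgeR adjusted p = 0.0178). The count of 4 fell to 0 without fw2.3-D replicate 2, fw2.3-D replicate 3, fw2.3-WT replicate 2 or fw2.3-WT replicate 3. Several of these loci are neighbouring copies that may share reads, so their separate values are uncertain.

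**Figure D4:**
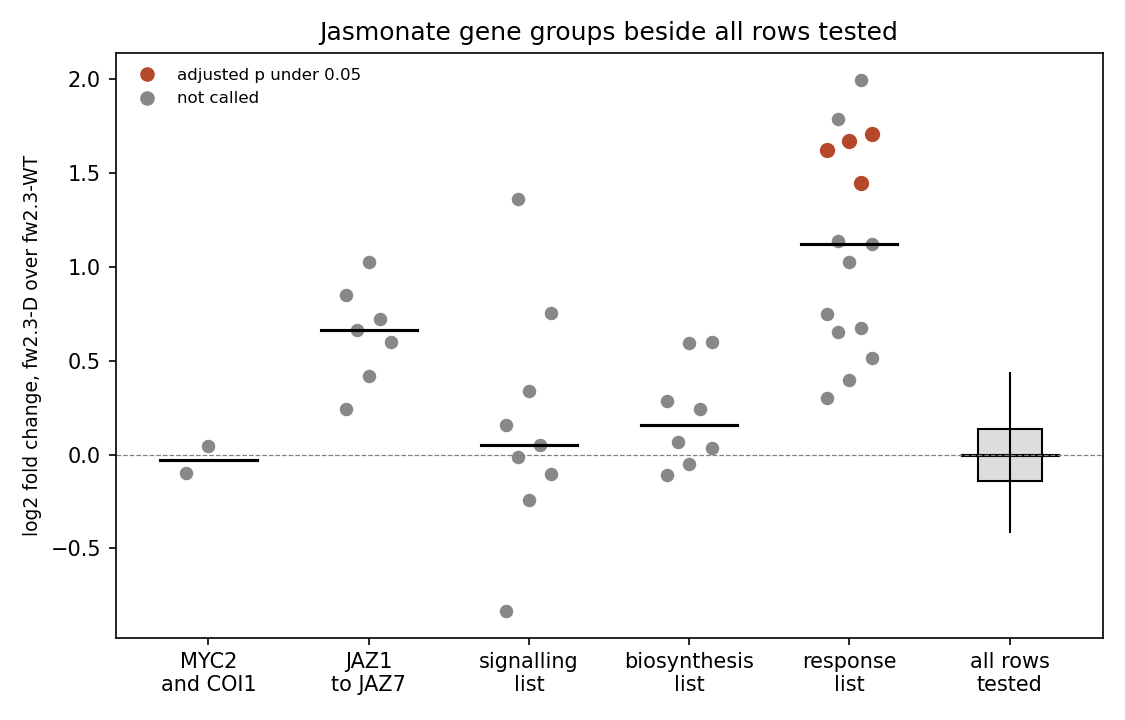
Log2 fold change, fw2.3-D over fw2.3-WT, of each tested locus by group, with the group median as a line and loci called at an edgeR adjusted p under 0.05 in red. The box for all rows tested shows the median and quartiles, with whiskers from the 5th to the 95th percentile. The medians are 0.66 for JAZ1 to JAZ7, 0.05 for signalling, 0.16 for biosynthesis and 1.12 for response.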

How the data were processed

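The authors deposited whole-number read counts per gene for each pool, without normalization, and a table of RPKM that scales reads to gene length and total, per the file headers. The submitters' processing notes list cutadapt, STAR and edgeR, with no roles; the counting program is not given in the sources used here, and the build SL4.0 comes from the name of the table. Counts were tested with edgeR 4.0.16 under R 4.3.3 (two-sided quasi-likelihood test, glmQLFTest, on genotype alone, TMM factors, filterByExpr with a minimum count of 10), on all rows, with Benjamini-Hochberg adjustment over 20942 rows. The fit was tested on simulated data. The SE is |log2 fold change| over the root of the F statistic. Alternatives were DESeq2 1.42.0, RLE factors, other filters, summed rows, the replicate block, each pool left out, and limma 3.58.1 on log2(RPKM + 1) and log2(RPKM + 0.1).

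The members and lists were chosen with earlier results of these data known. All members are named. From the lists, up to 2 called loci in each direction are named, with the 2 rows most like MYC2; single loci given by chromosome were picked after their values were seen. The files pair no identifier with a name: 0 of 34081 identifiers matched the RefSeq table of another assembly, SLM_r2.1. It holds symbols for 4 of the 10 members (MYC2, COI1, JAZ2 and JAZ3), on the chromosome of the identifier in all 4. Gene coordinates and sequences were not used here. No pair of pools agreed within sampling noise (chi-square per row from 13.5 to 52.9). By this measure the pools did not group by genotype, and each fw2.3-D pool was closest to a fw2.3-WT pool. The value was 13.5 for fw2.3-D 1 with fw2.3-WT 1, the closest pair. It was 28.1 for fw2.3-D 2 and 20.5 for fw2.3-D 3, both with fw2.3-WT 3. The pools fw2.3-WT 2 and fw2.3-WT 3 were closest to each other, at 18.0.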

Additional observations from a re-analysis of the deposited data

How the results depend on the processing

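The count of members called was 0 in the main edgeR fit. It was 1 with DESeq2 and with edgeR without a filter, with the replicate block or with a first-pool term, each time JAZ2. Over all rows these 4 fits called 48 of 23398, 13 of 25863, 10 of 20942 and 13 of 20942. The count of members was 5 at an unadjusted p under 0.05 in the main fit, where 746 of 20942 rows passed. It was 0 with RLE factors, a filter of 1 CPM in 3 pools, summed rows, both RPKM fits, the first pools left out, and each pool left out in turn. The count of other jasmonate loci called, 4, was 9 with DESeq2, 17 at an unadjusted p under 0.05, and 0 in the limma fits of RPKM with either pseudocount (15 at an unadjusted p under 0.05 in both). Leaving out single pools gave 0 to 6. The cause was not tested. The log2 fold change of MYC2 changed sign without fw2.3-D replicate 3 and without fw2.3-WT replicate 3, to -0.09 in both (-0.0918 and -0.0859), and reached at most 0.18. Of 144 fold changes of members under 16 alternatives, these were the 2 that reversed. JAZ2 ran from 0.88 to 1.17, and its adjusted p from 7.7e-05 to 0.985, the highest without fw2.3-WT replicate 2. The first-pool term and the first pools left out were added after the data were seen. Replicate numbers matched the pools of the genotypes for the first pools only. Pools of the same number deviated from their genotype means with correlations of 0.34, -0.06 and 0.05. Of 6 pools, 2, the first ones, correlated best with their own number. Under the replicate block JAZ2 had an adjusted p of 0.0342. At this depth, JAZ8 could be present below 0.134 CPM.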

Other observations

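The loci next to the members in identifier order were examined, with 5 tested rows on each side, taking that order as genome order. All 10 rows around JAZ2 had log2 fold changes above 0, from 0.03 to 2.77 with a median of 0.18, and 1 of them had an unadjusted p under 0.05. Over all 20942 rows tested, 10507 were above 0. JAZ2 lies on the same chromosome as the response locus Solyc12g010030, with 55 tested rows between them. Around both JAZ6 and MYC2, 8 of the 10 neighbours were above 0, with medians of 0.24 and 0.12. Around COI1 and JAZ5, 4 and 6 of the 10 neighbours were above 0, with medians of -0.07 and 0.01. Around JAZ1, JAZ3, JAZ4 and JAZ7 the neighbours' medians were 0.00, 0.04, -0.01 and -0.08, against 0.66, 0.60, 0.72 and 0.85 for the members themselves. No test was made of these values.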
